A study of Mus musculus with 4 samples.

Results

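The AP-1 family gene loci were the genes Fos, Fosb, Fosl1, Fosl2, Jun, Junb, Jund and Batf3, each taken with 20 kb on either side of its gene body, in the open chromatin of Treg cells. Peaks of the assay for transposase accessible chromatin (ATAC-seq) that fell in these windows were joined across libraries wherever they overlapped by 1 bp. This gave 68 merged regions out of 272233 in the whole series. The 4 libraries came from Foxp3+ CD4+ Treg cells sorted as RFP+ from the lymph nodes (LNs) of naive, unstimulated female C57BL/6 mice that were 6 to 8 weeks old, with 50000 cells per library. All mice carried the Foxp3 Rfp/Rfp reporter, in which the red fluorescent protein marks cells that express Foxp3. Of these mice 2 were wild type (WT) and 2 were Il2ra mut/mut, a germline point mutation in the alpha chain of the IL-2 receptor (CD25) that every cell of the mouse carries and that lowers, but does not abolish, IL-2 signalling in Treg cells. The comparison asked whether chromatin at the AP-1 genes is equally open when Treg cells receive less IL-2 signal.

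AP-1 is a family of transcription factors that bind DNA as dimers through a basic region and a leucine zipper (bZIP). Proteins of the Fos branch (Fos, Fosb, Fosl1 and Fosl2) cannot pair with one another and need a partner of the Jun branch (Jun, Junb, Jund), whereas Jun proteins can also pair among themselves. Batf3 is a short family member without a transactivation domain that pairs with Jun proteins. Antigen receptor and costimulatory signals induce several of these genes within minutes through MAP kinases, and AP-1 joins NFAT at many T cell enhancers. The dimers prefer the palindromic word TGAGTCA, while pairs with ATF and CREB proteins prefer TGACGTCA.

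WT libraries held 112569 and 126761 peaks, those of Il2ra mut/mut 122776 and 142732, and the authors called each library by itself. Total depth per library is unknown, since the lists give no read totals. A whole number of reads at each summit could be recovered from the fold enrichment, and the median peak had 8 to 10 such reads. The background recovered with them was 0.974 and 0.979 reads in the WT libraries. It was 1.23 and 1.06 in Il2ra mut/mut replicates 1 and 2, and summit reads are not scaled for it. Strength is given as the percentile of the peak's −log10 p among all peaks of its library, ties sharing their middle rank, beside the reads at its summit. Over regions called in all 4 libraries, percentiles of any 2 libraries correlated across regions with a Spearman rho between 0.866 and 0.900. Promoters of all 5 Treg markers examined (Foxp3, Il2ra, Ctla4, Ikzf2 and Tnfrsf18) and of all 4 CD4 T cell markers were called in all 4 libraries, against 1 of 4 B cell, 1 of 2 CD8 T cell, 0 of 4 myeloid and 0 of 2 NK cell markers. The B cell marker was Pax5, the CD8 marker was Cd8b1, and Cd8a had no promoter region in any library. With 2 mice per genotype, the smallest two-sided p of an exact permutation test was 0.333, so no single difference between genotypes could pass 0.05 in that test.

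The following promoter sequences belong to Fos, Fosb and the Jun genes, and all but that of Jun hold a match to a word for serum response factor, CREB or forkhead proteins. That of Jun, the strongest promoter, is shown for comparison. Each holds 300 bases, from 320 to 21 before the gene start in GENCODE, read from the RefSeq assembly GRCm38.p6 (mm10) on the strand of the gene. The RefSeq start of Junb lies 30 bp upstream of the GENCODE start, inside the window shown. That of Jund lies 1210 bp upstream, so the whole Jund window is downstream of it. Capitals mark matches to the words that were searched.
Fos upstream, chr12:85473570-85473869, plus strand: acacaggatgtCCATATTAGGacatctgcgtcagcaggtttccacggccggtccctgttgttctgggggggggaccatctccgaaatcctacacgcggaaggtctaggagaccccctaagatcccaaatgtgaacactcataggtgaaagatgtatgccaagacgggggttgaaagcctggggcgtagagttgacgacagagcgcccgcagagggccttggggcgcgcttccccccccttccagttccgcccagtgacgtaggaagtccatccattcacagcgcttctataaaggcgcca
Fosb upstream, chr7:19310072-19310371, minus strand: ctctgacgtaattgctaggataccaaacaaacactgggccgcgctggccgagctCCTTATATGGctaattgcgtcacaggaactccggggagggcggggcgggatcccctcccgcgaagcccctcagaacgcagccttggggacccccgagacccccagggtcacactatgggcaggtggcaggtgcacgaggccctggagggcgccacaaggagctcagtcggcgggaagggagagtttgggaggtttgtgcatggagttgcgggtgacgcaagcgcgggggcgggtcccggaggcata
Jun upstream, chr4:95052243-95052542, minus strand: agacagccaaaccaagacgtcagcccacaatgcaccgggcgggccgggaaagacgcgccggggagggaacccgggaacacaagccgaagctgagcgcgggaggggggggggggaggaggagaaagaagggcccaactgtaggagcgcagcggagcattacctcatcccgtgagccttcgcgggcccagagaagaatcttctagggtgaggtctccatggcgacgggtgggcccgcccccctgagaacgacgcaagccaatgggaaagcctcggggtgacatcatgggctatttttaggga
Junb upstream, chr8:84978739-84979038, minus strand: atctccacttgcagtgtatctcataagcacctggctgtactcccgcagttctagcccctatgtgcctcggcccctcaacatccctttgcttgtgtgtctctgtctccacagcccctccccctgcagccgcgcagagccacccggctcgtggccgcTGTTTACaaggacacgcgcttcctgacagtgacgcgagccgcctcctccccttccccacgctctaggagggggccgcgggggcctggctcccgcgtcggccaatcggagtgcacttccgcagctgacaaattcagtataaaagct
Jund upstream, chr8:70698629-70698928, plus strand: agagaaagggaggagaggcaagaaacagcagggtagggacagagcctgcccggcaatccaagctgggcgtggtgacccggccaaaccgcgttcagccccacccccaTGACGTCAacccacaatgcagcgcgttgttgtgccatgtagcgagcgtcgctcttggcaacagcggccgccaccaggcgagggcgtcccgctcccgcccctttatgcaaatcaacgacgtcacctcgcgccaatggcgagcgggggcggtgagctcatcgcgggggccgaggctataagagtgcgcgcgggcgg

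The CArG box (CC, then A or T at 6 positions, then GG) is the binding word of serum response factor, which drives Fos and other immediate-early genes. It stood as CCATATTAGG at positions −309 to −300 of Fos and as CCTTATATGG at −266 to −257 of Fosb, counted from the gene start. Of the 8 members these 2 had a CArG box within 500 bp upstream, against 2.70% of the 21938 protein-coding genes. Jund had the CREB word TGACGTCA at −214 to −207, which 2.22% of all genes hold in such a window. Junb had the forkhead word GTAAACA on the opposite strand at −165 to −159, against 6.16% of all genes. The AP-1 word TGAGTCA was found upstream of 0 of the 8 members (7.54% of all genes), and the STAT word TTCNNNGAA likewise of 0 (14.8%). The 4 matches before Fos, Fosb, Jund and Junb each lay within a region called in all 4 libraries. Before the RefSeq start of Batf3, which lies 567 bp downstream of its GENCODE start, the STAT word stood as TTCCACGAA at −239 to −231. In the 250 bases before their starts, 7.02% of all promoters of the RefSeq table held that word. Matches to short words describe the sequence and do not show that a factor was bound.

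The Jun branch had the strongest promoters. Jun, the founding member of its branch, had percentiles of 99.5 and 99.4 in WT and 99.6 and 99.5 in the mutant, with 117, 156, 167 and 144 reads at the summit. Jund, which is expressed broadly and changes little on stimulation, stood at 99.0 and 99.0 in WT and 99.5 and 99.3 in the mutant, with 97, 131, 154 and 127 reads. Junb, an inducible member with known roles in T helper and effector Treg cells, stood at 96.9 and 97.6 against 97.4 and 98.6 in the peaks over its start, with 58, 89, 80 and 95 reads. For Jun and Jund both mutant libraries lay above both WT libraries, by differences of means of 0.12 and 0.37 points, with an exact permutation p of 0.333 for each, the smallest value this test allows here. For Junb the genotypes overlapped over the start, with a difference of means of 0.71 points (exact permutation p = 0.667). The strongest peak of the merged Junb region was at 98.1 in Il2ra mut/mut replicate 1, but this was a separate peak 1.83 to 3.26 kb into the gene, and the summits joined in that region were spread over 2316 bp. Among the protein-coding genes with a promoter region in all 4 libraries, 94.7% had a lower mean percentile than Jun, 91.3% than Jund and 77.1% than Junb.

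Fos, Fosb, Fosl2 and Fosl1 had weaker promoter regions. The Fos promoter, the classical immediate-early promoter, stood at 94.8 and 97.0 in WT and 95.5 and 95.9 in the mutant, with 42, 78, 57 and 52 reads. Fosb, also an immediate-early gene, stood at 95.9 and 96.7 in WT and 93.8 and 96.8 in the mutant, with 49, 74, 46 and 62 reads. For both genes the libraries of one genotype lay within or across those of the other (exact permutation p = 1). The Fosb region had its summit 1.34 kb downstream of the gene start, near an alternative start, and a second region 0.239 kb upstream of the start, which holds the CArG box, had a mean percentile of 94.1. Fosl2, which encodes Fra-2, stood at 91.9 and 91.6 in WT and 94.5 and 94.0 in the mutant, with 30, 38, 50 and 39 reads. Its mutant libraries lay above both WT libraries by a mean of 2.54 points (exact permutation p = 0.333), the largest of the 7 promoter differences. Fosl1, which encodes Fra-1, stood at 86.0 and 91.3 in WT and 89.1 and 92.6 in the mutant, with 18, 37, 27 and 32 reads, and its genotypes overlapped (exact permutation p = 0.667).

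Batf3 had no called region within 1 kb of any of its start sites in any library. It was the only one of the 8 members without a promoter region in all 4 libraries, against a background of 53.3% of protein-coding genes that have one (11693 of 21938). A single peak lay within its gene body, in the intron 5.03 kb from the start, and was called in Il2ra mut/mut replicate 1 alone with 11 reads. The RefSeq start of Batf3 lies 567 bp downstream of its GENCODE start, inside the gene body. The 250 bases before the RefSeq start held 27 CpG and 76% GC, against medians of 6 and 52.4% over all promoters of the RefSeq table. The 300 bases from 320 to 21 before the GENCODE start held 8 CpG and 49.3% GC. Absence of a called peak says that the signal stayed under the authors' threshold at this depth.

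Ordered by the mean percentile over the 4 libraries, the promoters ran Jun (99.5 ± 0.08, SD over the 4 libraries), Jund (99.2 ± 0.23), Junb (97.8 ± 0.70), Fosb (95.8 ± 1.37), Fos (95.8 ± 0.91), Fosl2 (93.0 ± 1.48) and Fosl1 (89.7 ± 2.91). These are the strongest peaks of each merged region. Fosb and Fos did not differ beyond their spread in these peaks, each being the higher in 2 of the 4 libraries. The Fosb peaks ranked here are those of the region with its summit 1.34 kb downstream of the gene start. In the peaks over the gene start Fos was above Fosb in each of the 4 libraries, with means of 95.8 and 94.1. The ranges of Jun and Jund overlapped over the libraries, as did those of Fosl2 and Fosl1, yet within each of the 4 libraries Jun was above Jund and Fosl2 above Fosl1. Jund and Junb did not overlap, nor did Junb and Fosb (lowest 96.9 against highest 96.8) or Fos and Fosl2, whereas the range of Junb reached that of Fos (highest 97.0). WT replicate 1 had the fewest summit reads at 6 of the 7 promoters, all but Fosb. Reads were not scaled for depth. Fold enrichment over each library's own background was lowest in WT replicate 1 at the same 6 promoters. At Jun it was 59.8 there, against 79.3 in WT replicate 2 and 75.4 and 70.5 in the mutant. What sets this order of libraries was not tested, and it cannot be read as a difference in openness.

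**Figure D1:**
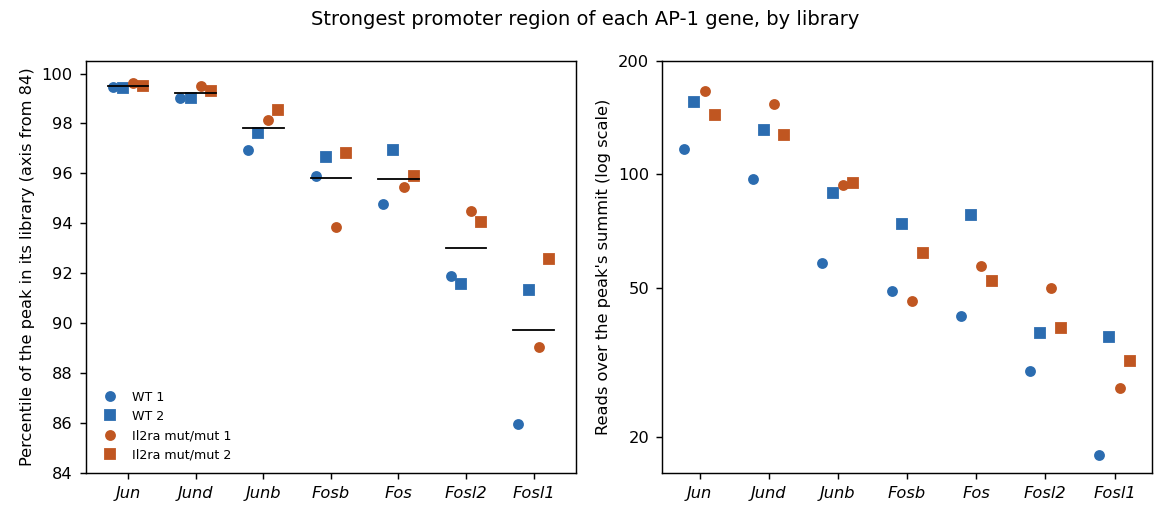
Strongest region within 1 kb of a start site for the 7 AP-1 genes that have one, with 1 symbol per library (blue WT, orange Il2ra mut/mut; circles replicate 1, squares replicate 2). The left panel gives the percentile of the peak in its library on an axis that starts at 84, with a line at the mean; the right panel gives reads at the summit on a log axis. Jun and Jund sit above 99 in every library, Fosl1 ranges from 86.0 to 92.6, and the Junb symbol of Il2ra mut/mut replicate 1 is the peak further into the gene. The Fosb symbols belong to the region with its summit 1.34 kb downstream of the gene start.

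Jun and Jund also had some of the longest promoter regions, and so did Junb in the libraries joined. The merged region of Jun measured 3881 bp, that of Junb 3756 bp and that of Jund 3393 bp, against a median of 1076 bp over the 11693 protein-coding genes with a promoter in all 4 libraries. Of those genes 99.9% had a narrower region than Jun, 99.8% than Junb and 99.7% than Jund. Fos (1746 bp, 88.7% narrower), Fosl2 (1700 bp, 87.4%), Fosb (1308 bp, 68.8%) and Fosl1 (972 bp, 39.5%) lay within the bulk. The length of the Junb region rested on 1 library, since WT replicate 1 had a single peak of 3738 bp where the other 3 libraries each had 2 peaks. Without WT replicate 1 it measured 1996 bp (94.8% of genes narrower), and that of Fos 862 bp (33.8%) in place of 1746 bp, while Jun (3881 bp) and Jund (3389 bp) kept theirs. Jun and Jund are genes of 1 exon and Junb has at most 2. In each of them the peaks ran through most of the gene body. Peaks covered 90.0 to 100% of the Jund gene body, 69.7 to 85.5% of Jun and 69.2 to 79.9% of Junb in the 4 libraries. Coverage was 23.9 to 36.6% in Fos, 12.6 to 29.5% in Fosb, 5.29 to 11.8% in Fosl1, 1.25 to 4.01% in Fosl2 and 0 to 3.86% in Batf3.

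**Figure D2:**
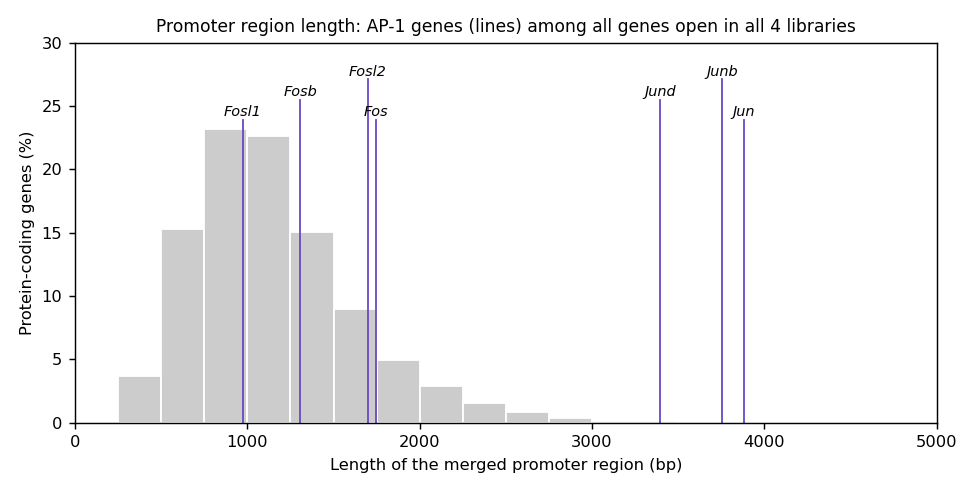
Length of the merged promoter region (bp, horizontal axis) for all protein-coding genes with a promoter region in all 4 libraries, as bars of 250 bp giving the percent of genes, with a line for each of 7 AP-1 genes. Jund, Junb and Jun, at 3393 to 3881 bp, stand to the right of almost all genes; without WT replicate 1 Junb would stand at 1996 bp and Fos at 862 bp.

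Of the 68 regions 36 were called in all 4 libraries (52.9%, 95% Wilson interval 41.2 to 64.3, which covers counting error only). The same share was 14.1% over all merged regions and 19.1% over those within 20 kb of a protein-coding gene. Another 6 regions were called in 3 libraries, 7 in 2 and 19 in 1. The regions called in 1 library were weak, with 6 to 12 reads at the summit, a median percentile of 43.8 and a median length of 245 bp. They fell to WT replicate 2 in 10 cases, to Il2ra mut/mut replicate 2 in 5, to WT replicate 1 in 3 and to Il2ra mut/mut replicate 1 in 1. The 36 regions had a median mean percentile of 89.6, against 82.8 over all 38426 regions called in all 4 libraries, and a median length of 764.5 bp against 760 bp.

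In GRCm38 Fos lies at chr12:85473890-85477273, Fosl1 at chr19:5447547-5455946, Fosl2 at chr5:32135801-32157842, Jund at chr8:70698949-70700616 and Batf3 at chr1:191097847-191108945 on the plus strand. Fosb (chr7:19302696-19310051), Jun (chr4:95049034-95052222) and Junb (chr8:84974484-84978718) lie on the minus strand. The loci differed in how their regions were laid out. Fos had 14 regions, 4 of them in all 4 libraries, and Fosb 14 with 9. Fosl1 had 11 with 5, Junb 11 with 8 and Jund 8 with 5. Fosl2, the longest of the genes at 22042 bp, had 4 regions with 3 in all 4 libraries, and Jun had 4 with 1. Batf3 had 2 with 1. Of all 68 regions, 24 were intergenic, 13 lay within 1 kb of a start site of a member, 13 at the promoter of another protein-coding gene, 5 at that of a noncoding gene, 8 inside another gene, 3 on an exon and 2 in an intron of a member. Neighbouring promoters in the windows were those of Rtn2 and Gm26802 at Fosb, Ccdc85b, Fibp, Ctsw and Efemp2 at Fosl1, Gm10463 at Fosl2, Gm12703 and Junos at Jun, Rnaseh2a, Prdx2, Gm49661 and Hook2 at Junb, and Gm11175 and Gm3336 at Jund. Which gene an intergenic region acts on was not measured.

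**Figure D3:**
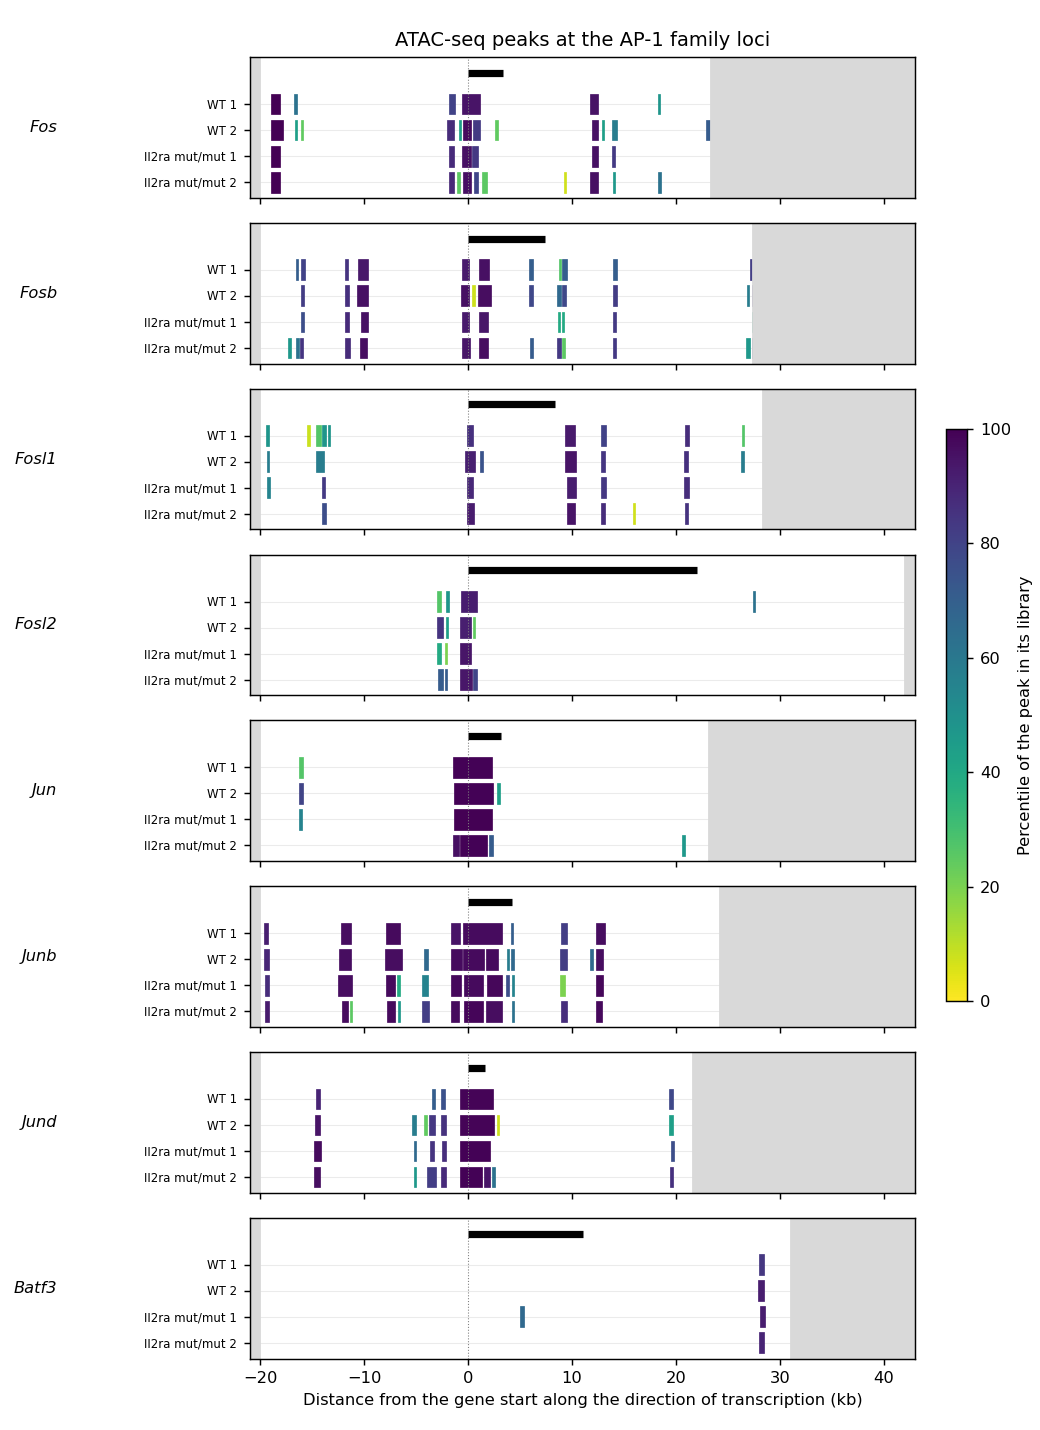
Peaks of each library (rows, WT above Il2ra mut/mut) at the 8 AP-1 genes, by distance from the gene start along the direction of transcription in kb, coloured by percentile in the library. The black bar is the gene body and the grey area lies outside the 20 kb window. Batf3 has no peak near its start in any library, whereas Jun, Junb and Jund are covered from before the start through most of the gene body.

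Several intergenic regions were as strong as the promoters. The following windows span 100 bp on either side of the summit on the strand of the AP-1 gene. They are the strongest intergenic regions of Fos, Junb and Jund and the Fos region with a CArG box. Last comes, among the Fosl1 regions, the one that differed most between genotypes.
18.5 kb upstream of Fos, chr12:85455303-85455503, plus strand: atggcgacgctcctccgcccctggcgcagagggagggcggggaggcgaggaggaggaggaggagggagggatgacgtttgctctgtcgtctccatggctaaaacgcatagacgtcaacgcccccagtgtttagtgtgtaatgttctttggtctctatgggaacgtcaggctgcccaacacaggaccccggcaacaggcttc
12.2 kb downstream of the Fos start, chr12:85485992-85486192, plus strand: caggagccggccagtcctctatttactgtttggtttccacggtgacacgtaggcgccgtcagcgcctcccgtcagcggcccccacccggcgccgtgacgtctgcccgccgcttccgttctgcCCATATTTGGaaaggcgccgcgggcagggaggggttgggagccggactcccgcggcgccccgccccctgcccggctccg
7.46 kb upstream of Junb, chr8:84986083-84986283, minus strand: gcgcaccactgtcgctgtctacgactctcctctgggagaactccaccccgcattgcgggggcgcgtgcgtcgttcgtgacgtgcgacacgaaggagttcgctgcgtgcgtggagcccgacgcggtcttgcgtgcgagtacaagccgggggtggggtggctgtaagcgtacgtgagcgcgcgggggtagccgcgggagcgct
14.4 kb upstream of Jund, chr8:70684418-70684618, plus strand: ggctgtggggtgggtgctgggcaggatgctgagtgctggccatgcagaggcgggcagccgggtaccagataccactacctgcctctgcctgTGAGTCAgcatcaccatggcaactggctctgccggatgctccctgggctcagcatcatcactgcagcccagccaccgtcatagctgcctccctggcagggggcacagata
13.9 kb upstream of Fosl1, chr19:5433557-5433757, plus strand: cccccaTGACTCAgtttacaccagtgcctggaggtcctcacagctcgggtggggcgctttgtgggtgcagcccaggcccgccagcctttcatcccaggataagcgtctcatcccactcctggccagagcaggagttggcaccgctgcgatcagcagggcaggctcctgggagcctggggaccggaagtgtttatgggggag

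The region 18.5 kb upstream of Fos (chr12:85454910-85456115, GRCm38) was the strongest of all 68. It stood at 99.6 and 99.8 in WT and 99.7 and 99.7 in the mutant, with 130, 210, 185 and 167 reads, which is above the Fos promoter in every library. It lay outside 1 kb of every annotated start site and overlapped no annotated gene, and its summit window had 13 CpG. Genotypes overlapped, with a difference of means of 0.02 points. The region 12.2 kb downstream of the Fos start (chr12:85485619-85486416) stood at 95.3 and 95.5 in WT and 95.7 and 96.0 in the mutant, with 45, 62, 59 and 53 reads, and carried the CArG box CCATATTTGG 22 bp from its summit. It was singled out after its values were seen.

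Upstream of Junb, a region 7.46 kb away (chr8:84985081-84986682) stood at 97.5 and 96.8 in WT and 97.4 and 97.6 in the mutant, with 64, 76, 80 and 73 reads. It overlapped no annotated gene, and its genotypes overlapped. A region 14.4 kb upstream of Jund (chr8:70684152-70684806) stood at 90.0 and 94.5 in WT and 97.1 and 96.4 in the mutant, with 25, 54, 75 and 57 reads. Here both mutant libraries were above both WT libraries, by 4.44 points between means and a gap of 1.85 points (exact permutation p = 0.333). The AP-1 word TGAGTCA began 9 bp before its summit. Fosb had its strongest region outside promoters 10.1 kb upstream, within the noncoding gene D830036C21Rik, at 93.6 and 95.5 against 95.7 and 96.5, with 36, 62, 59 and 58 reads. The only Batf3 region in all 4 libraries lay 28.2 kb downstream of its start (chr1:191125712-191126422) at 84.2 and 91.8 against 92.1 and 90.1, with 16, 39, 37 and 24 reads. Fosl2 and Jun had no region outside promoters that was called in all 4 libraries.

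Differences between the genotypes at the AP-1 loci were centred near those of all regions. Over the 36 regions the median difference in mean percentile, Il2ra mut/mut minus WT, was 0.40 points, with a range from −42.4 to 26.9. Over all 38426 regions called in all 4 libraries the median was 0.65 points, with quartiles of −1.71 and 4.78. The median SD between libraries of one genotype was 1.40 points at the 36 regions. Libraries of the mutant were both above those of WT in 13 of the 36 regions (36.1%) and both below in 3 (8.33%), against 26.2% and 12.6% of all regions. Of the 13 gaps, 12 were between 0.05 and 2.17 points. The Junb promoter is among the 13 only through its peak further into the gene.

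A gap of at least 10 points was seen in 1 region in each direction (2.78% of 36 each), against 4.04% of all regions with the mutant higher and 2.48% with WT higher. The region with the mutant higher lay 13.9 kb upstream of Fosl1 (chr19:5432951-5433912), overlapped no gene, and stood at 47.7 and 58.0 in WT and 83.0 and 76.5 in the mutant. Its summits had 8 and 9 reads against 17 and 11, and those of the 4 libraries were spread over 572 bp, so the peaks joined there were not all at 1 place. The AP-1 word lay 94 bp from the summit used. The region with WT higher lay 9.23 kb downstream of the Fosb start at the promoter of the noncoding gene Gm26802 (chr7:19300571-19300981), at 70.7 and 78.5 in WT and 39.1 and 25.3 in the mutant. That was 10 and 14 reads against 9 and 7. Exact permutation p was 0.333 for both, and a few reads at the summit carried each difference. On log2 fold enrichment, centred in each library, the region upstream of Fosl1 had a gap of 0.15. The region 14.4 kb upstream of Jund had a larger gap of 0.30 on that scale, also with the mutant higher.

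**Figure D4:**
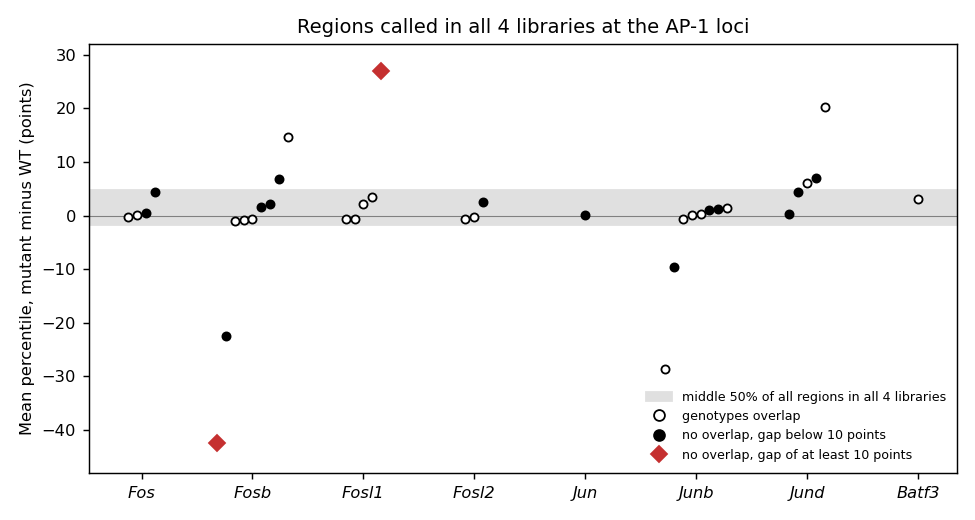
Difference in mean percentile (points, Il2ra mut/mut minus WT) for each of the 36 regions called in all 4 libraries, by AP-1 locus. Open circles are regions whose genotypes overlap, filled circles those that do not overlap with a gap below 10 points, and red diamonds the 2 with a gap of at least 10 points; the grey band spans the middle 50% of all regions. Most of the regions lie in or near the band.

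Regions called in both libraries of WT and in no mutant library numbered 2 of 68 (2.94%), against a background of 2.7%. One lay 16.6 kb upstream of Fos (chr12:85457122-85457476) with 9 and 8 reads in WT, at percentiles of 62.4 and 43.8. The other lay 26.5 kb downstream of the Fosl1 start, at the promoter of Efemp2, with 7 and 9 reads, at 26.6 and 58.0. Both were weak in the libraries that called them. Regions called in both mutant libraries and in no WT library numbered 0 of 68, against a background of 3.56%.

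The AP-1 word TGAGTCA occurred within 100 bp of the summit, on either strand, in 8 of the 68 regions (11.8%), against 4.62% of all merged regions. Among regions called in all 4 libraries it was 4 of 36 (11.1%) against 6.15%. Those 4 were the Fosl2 promoter, where the word lay 24 bp from the summit, the regions upstream of Jund and Fosl1 shown above, and a region within another gene at Fosb. The CREB word was in 0 of 68 windows (0.326% of all), the STAT word in 3 (4.41% against 6.18%), the forkhead word in 3 (4.41% against 2.78%) and the CArG box in 2 (2.94% against 0.969%), at the Fosb promoter and downstream of Fos. The Junb promoter held the forkhead word 1 bp from its summit. Windows at the AP-1 loci were richer in GC, with a median of 59.5% against 47.3%, and in CpG, with a median observed to expected ratio of 0.534 against 0.165. Counts this small are descriptions, and the part of the higher GC in them was not tested.

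Genes around AP-1 were open at their promoters as well. Of 16 other bZIP genes that pair with or resemble AP-1, such as Batf, Atf3, Jdp2 and Bach2, all 16 had a promoter region in all 4 libraries, with a median percentile of 95.0. All 16 MAP kinases, their upstream kinases and dual-specificity phosphatases did, with a median of 97.8. All 10 other immediate-early genes did, with a median of 94.4 and a median length of 1898.5 bp. The 7 open AP-1 promoters had a median of 95.8 and a length of 1746 bp, and all protein-coding genes with such a promoter had 94.3 and 1076 bp. Batf, the family member closest to Batf3 in structure and known for its role in T cells, stood at 93.1, while Batf3 had no promoter region. Within these lists the promoter of Dusp10, a phosphatase that inactivates JNK and p38, was the strongest at 99.9. Median differences between genotypes were 0.37 points for the AP-1 promoters, 0.01 for the other bZIP genes, 0.12 for the kinases and phosphatases and 0.31 for the immediate-early genes, against 0.37 over all genes.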

How the data were processed

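Treg cells were analysed by ATAC-seq in 4 libraries, 2 per genotype. Per the labels and the methods of the study, the authors trimmed reads (Trim Galore 0.3.7), mapped them to mm10 (BWA 0.7.13), used SAMtools 0.1.19 and Picard 1.92, removed duplicated and mitochondrial reads, shifted the reads and called narrow peaks per library with MACS2 2.1.0. Shifting moves each read to the transposase cut, which sets where summits fall. The deposited lists give, per peak, the fold enrichment at the summit as a ratio to background with 1 added to both, the −log10 p-value, the −log10 q-value and a score of 10 times the latter. The deposited −log10 q-value was at least 1.30 in every list. No read totals are given, so total depth is unknown. Low percentiles are coarse, since 1 read at the summit can shift them by many points.

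Peaks were joined at 1 bp of overlap, and each region took the peak with the highest −log10 p per library. Gene bodies, start sites and exons came from GENCODE M21 (GRCm38), and a promoter region lay within 1 kb of a start site. Genotypes were compared by the gap between their libraries (at least 10 points) and by an exact permutation test over libraries, two-sided. Words were searched on both strands within 100 bp of summits, within 500 bp upstream of gene starts and in the 250 bases before RefSeq starts. A palindromic match was counted once, and the words can overlap one another. The members, the gene lists and the tests were chosen with earlier results of these data known. Regions named were, per gene, the strongest promoter region, those called in 1 genotype alone, those past the gap and the strongest outside promoters. The second Fosb and the downstream Fos regions, the regions with words, the Batf3 intron peak and, in the lists, Batf and Dusp10 were named after their values were seen. Software was matplotlib 3.10.9, statsmodels 0.14.6, pysam 0.24.0, scipy 1.17.1, pandas 2.3.3 and numpy 2.4.6 under Python 3.11.15, and 8 checks on made-up peaks came out as set.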

Additional observations from a re-analysis of the deposited data

How the results depend on the processing

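With 2 mice per genotype no difference between genotypes could pass the exact permutation test at 0.05, and regions at 7 to 17 reads turn on a few reads. The number of regions was 43 with 10 kb and 113 with 50 kb on either side. The regions called in WT alone were then 0 of 43 and 8 of 113, against 2.7% of all merged regions. Restricting to peaks whose −log10 q reached 3 left 1 such region, no region with WT higher by the gap (0) and a median difference of 2.49 points. Equal numbers of peaks also left 0 with WT higher. With 10 kb, 0 regions had the mutant higher by the gap, against 4.04% of all regions. With a gap of 20 points the count was 0 as well. On centred log2 fold enrichment with a gap of 0.5, 0 regions had the mutant higher and 0 had WT higher. Over all regions called in all 4 libraries those shares were 1.14% and 1.46%, so counts of 0 are uninformative here. For the limit on −log10 q, equal numbers of peaks and the gap of 20 points, values over all regions were not recomputed.

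Replicate 1 minus replicate 2 in WT and in the mutant did not go together over regions (correlation 0.0136 over 38426 regions). Percentiles remove any shift of a whole library, so this cannot show whether same-numbered libraries shared a batch. Comparing them as a replicate block, with both differences of at least 10 points, gave 2 regions with the mutant higher and 1 with WT higher. No share over all regions was computed for that rule. The smaller of the 2 differences per region, set to 0 where their signs disagreed, had a median of 0 points. That median is not comparable with the median difference of means given above.

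Leaving out 1 library at a time, regions in WT alone ranged from 3 to 12 (12 without WT replicate 1, 6 without WT replicate 2, 4 without Il2ra mut/mut replicate 1) and in the mutant alone from 0 to 5 (3 without WT replicate 2, 5 without Il2ra mut/mut replicate 1, 1 without Il2ra mut/mut replicate 2). Regions past the gap ranged from 1 to 6 with the mutant higher (6 without WT replicate 2) and from 1 to 5 with WT higher (5 without Il2ra mut/mut replicate 2). The median difference ranged from 0.13 to 1.93 points. Shares over all merged regions were not recomputed without each library, so the counts have no background beside them. The cause of these shifts was not tested, beyond the fewer libraries that have to meet each rule. With the peak over the gene start in each library, an alternative chosen after the data were seen, the mean Fosb promoter was at 94.1. Of 134 values recomputed under the other alternatives, 109 moved by less than their spread or by at most 1.5 times, among them all 56 on promoters. Percentiles of fold enrichment and of −log10 p gave the same values, since both rank peaks alike.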
